A study of Mus musculus with 6 samples.

Results

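The imprinted growth genes described here are 10 genes of fetal growth: H19, Igf2, Igf2r, Dlk1, Meg3, Peg3, Cdkn1c, Mest, Grb10 and Plagl1. They are a named list, found in the files by Ensembl identifier and symbol and not by their values. H19, Igf2, Cdkn1c and Peg3 lie on chromosome 7, Dlk1 and Meg3 on chromosome 12, Mest on 6, Plagl1 on 10, Grb10 on 11 and Igf2r on 17. All 10 were found among the 24389 genes measured, and all 10 passed the filter on low values (a mean of at least 1 over the libraries). RNA was sequenced from the dorsal pancreas, the dorsal bud of the embryonic gland, at E13.5, mid-gestation in the mouse. There were 3 libraries of Bicc1 knockout (KO) embryos and 3 of wild-type (WT) embryos, all on a mixed C57BL/6 and ICR background. Bicaudal C1, the product of Bicc1, binds RNA. The labels give neither the allele behind the knockout nor the number of embryos in a library. The p-values therefore measure only the spread between these libraries, which may be technical.

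An imprinted gene is transcribed mainly from the copy inherited from either the mother or the father, because the copies carry different DNA methylation from the germ line. As a broad rule, paternally expressed imprinted genes promote fetal growth and maternally expressed ones restrain it. In the pancreas, Igf2 and Cdkn1c have long been studied because disturbed imprinting at their shared chromosomal region accompanies overgrowth of endocrine cells in people. Of the 10 genes, H19, Igf2r, Meg3, Cdkn1c and Grb10 are maternally expressed in most fetal tissues, and Igf2, Dlk1, Peg3, Mest and Plagl1 are paternally expressed. The libraries were not resolved by parental allele, so each value is the sum over both copies.

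Several of these transcripts also host microRNAs, whose mature sequences are shown because they are what H19 and its neighbours can release besides the long transcript itself. The libraries do not measure mature microRNAs. The sequences are from RefSeq, build GRCm38.p6, while the expression files rest on build mm9. H19 carries the miR-675 hairpin within an exon (chr7:142577064-142577147, strand -), with its mature arms in capitals:
Hairpin of miR-675: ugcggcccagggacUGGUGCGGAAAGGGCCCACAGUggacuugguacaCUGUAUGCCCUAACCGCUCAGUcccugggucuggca
In the mature sequences the capitals mark the seed, bases 2 to 8, which pairs with targets. The miR-675 arms come from H19, the miR-483 arm from Igf2 and the miR-335 arm from Mest:
mmu-miR-675-5p (chr7:142577112-142577133, strand -): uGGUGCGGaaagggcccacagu
mmu-miR-675-3p (chr7:142577078-142577099, strand -): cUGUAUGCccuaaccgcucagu
mmu-miR-483-3p (chr7:142654932-142654952, strand -): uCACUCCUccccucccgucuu
mmu-miR-335-5p (chr6:30741314-30741336, strand +): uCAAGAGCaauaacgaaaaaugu
None of these 4 arms shared a seed with another.

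The depth of the libraries is unknown, because the files give a density per gene and no counts. The values of a library summed to 689782 to 716255 in KO and 674295 to 716119 in WT. Bicc1 itself checked the labels: it was 3.96, 4.91 and 4.48 in KO libraries, against 19.7, 19.5 and 18.2 in WT libraries, and fell by 1.89 on the log2 scale (SE 0.087, limma adjusted p = 0.00067). The first principal component held 57.3% of the variance and did not follow genotype: it set KO 1, KO 2 and WT 3 (the first set) against KO 3, WT 1 and WT 2 (the second set). Xist, a transcript of female cells, was 3.63 in KO 1, 4.63 in KO 2 and 3.79 in WT 3, and 1.33 in KO 3, 1.28 in WT 1 and 0.01 in WT 2. The mean of Ddx3y, Eif2s3y, Kdm5d and Uty, which are Y-linked, was 2.34, 4.601 and 5.64 in KO libraries, against 5.84, 7.92 and 2.35 in WT libraries, so Y-linked transcripts were found in every library. That mean was lower in each of KO 1, KO 2 and WT 3 than in each of the other libraries. The sex make-up of a library and the first component therefore cannot be told apart here. In the first set, genes rich in G and C deviated upwards (Spearman's rho across genes, which are not independent, of 0.405 to 0.615), and in the second downwards (-0.186 to -0.657). These sets were read from the data and are not groups of the study.

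H19 had the highest value of all 24389 genes in every library. It was 16449, 19247 and 17137 in KO libraries, against 16573, 14733 and 15859.7 in WT libraries, which is 1.67 to 2.05 times the next gene. This noncoding RNA alone made up 2.30% to 2.76% of the summed values of a KO library and 2.18% to 2.38% of a WT library. Igf2, the fetal growth factor made from the other parental copy of the same locus, ranked between 19 and 24. Mest ranked between 86 and 114, the 6 genes Plagl1, Peg3, Cdkn1c, Grb10, Dlk1 and Meg3 between 303 and 856, and Igf2r between 2254 and 3078. Together the 10 genes held 3.22% to 3.65% of the summed values in KO and 3.09% to 3.27% in WT.

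These levels are densities per exonic base, so genes can be compared, with limits. The values behave as a mean over exonic bases, and for many genes the number of bases could be read back from the decimals. Igf2r gave a length of 9438 bases, Grb10 of 9164, Plagl1 of 7289, Dlk1 of 5025, Mest of 2565 and Cdkn1c of 1931, each between 65.0% and 101% of its annotated exonic length. Meg3 gave only 332 bases, or a whole multiple of them, which is 1.84% of its annotated exons, so its value may describe a short stretch of this long noncoding RNA. For H19, Igf2 and Peg3 no length could be read. H19 would have shown one of up to 254 bases and Igf2 one of up to 1834.

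**Figure D1:**
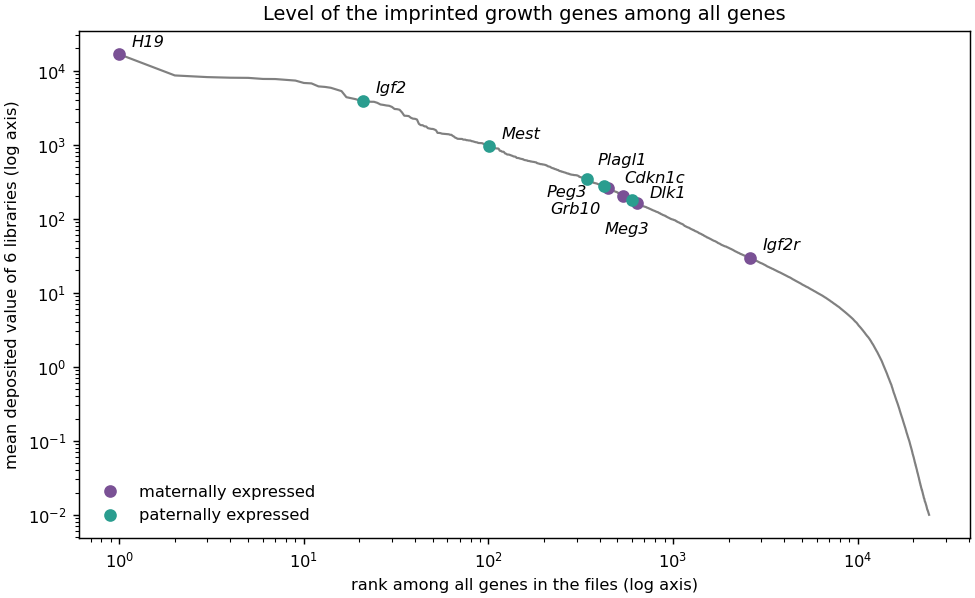
Mean deposited value of each gene over the 6 libraries (vertical, log axis, density per exonic base) against its rank among all 24389 genes (horizontal, log axis). Grey is the curve of all genes, and coloured points are the 10 imprinted growth genes by parental expression. H19 stands at rank 1, above the shoulder of the curve, Igf2 follows among the first 24, and Igf2r lies lowest.

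Loss of Bicc1 was not accompanied by a change in these genes that passed the test. None of the 10 passed limma at an adjusted p of 0.05, in either direction, where 0.0144% of the 13911 genes tested did (2 genes, Bicc1 and 4930533K18Rik, both lower in KO). At an unadjusted p of 0.05, 1 of 10 passed, Igf2r, against 10.3% of all genes tested. The KO mean was higher in 7 of the 10 and lower in 3, with a median log2 difference (KO minus WT, of value + 1) of 0.063, against 0.014 for all genes tested. Of all genes tested 53.5% were higher in KO, which is the background for every count of directions given here. Of the 5 maternally expressed genes 4 were higher in KO and 1 lower, with a median log2 difference of 0.16. Of the 5 paternally expressed genes 3 were higher and 2 lower, with a median of 0.056. After GC correction these medians were 0.0094 and -0.0075. The groups did not overlap in 1 gene, Igf2r, in which every KO value lay above every WT value. That holds for 7.67% of all genes tested, and the opposite order, seen in none of the 10, for 8.77%. In bulk tissue, fewer cells of a type and less RNA per cell cannot be told apart, which holds for every difference given here.

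The 95% intervals of limma reached from 0.743-fold to 1.69-fold for Meg3, the least precise gene. In the other 9 they stayed between 0.811-fold, the lower bound of Cdkn1c, and 1.38-fold, the upper bound of Igf2r. For H19 the interval ran from 0.920-fold to 1.36-fold, and for Igf2 from 0.907-fold to 1.21-fold. These intervals apply to each gene alone and to the values as deposited, and do not allow for the number of genes. After GC correction the estimate for Cdkn1c, -0.33 on the log2 scale, lay below its own interval, which starts at -0.30.

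**Figure D2:**
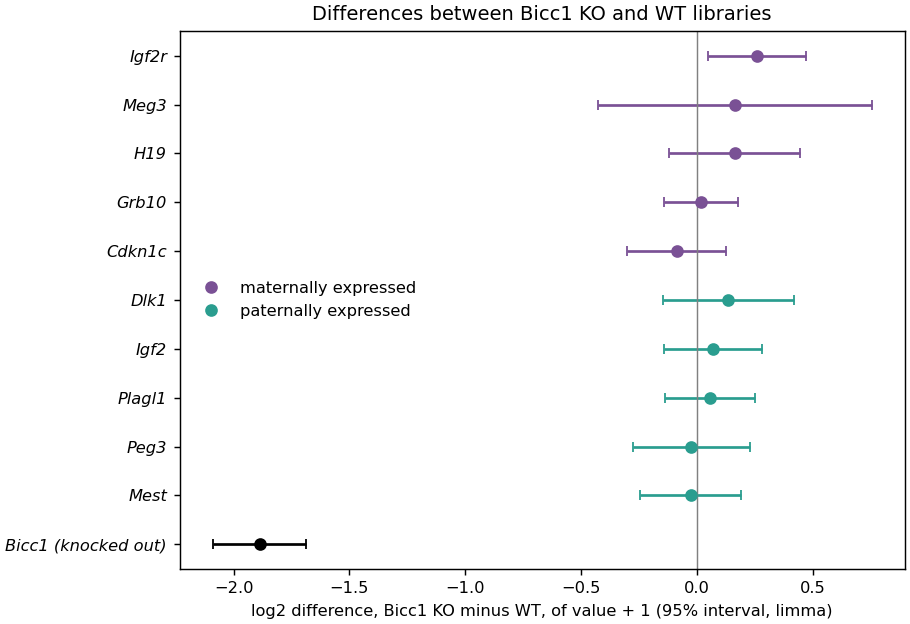
Log2 difference between KO and WT (horizontal, of value + 1) for each of the 10 imprinted growth genes and for Bicc1, with the 95% interval of limma. The interval of every gene but Igf2r includes 0, and Bicc1 lies at -1.89.

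Among the maternally expressed genes, H19 (ENSMUSG00000000031) averaged 17611 ± 1458 in KO libraries and 15722 ± 928 in WT libraries (SD, n = 3 per genotype). Its highest library was KO 2 and its lowest WT 2, but KO 1 lay below WT 1, so the groups overlapped. The log2 difference was 0.16 (SE 0.12, limma adjusted p = 0.560), and it was -0.00099 after correction for GC content.

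Igf2r (ENSMUSG00000023830) encodes the receptor that takes up IGF2 and delivers it to lysosomes, which lowers the amount of the growth factor. It was 30.1, 35.1 and 32.3 in KO libraries, against 24.4, 28.7 and 28.0 in WT libraries. All KO libraries were above all WT libraries, by a narrow margin between KO 1 and WT 2. The log2 difference was 0.26 (SE 0.090), which did not pass limma (adjusted p = 0.469), and over all alternatives it stayed between 0.19 and 0.31. It was 0.21 within the first set of libraries and 0.28 within the second, where each genotype has 1 or 2 libraries. Airn, the antisense RNA that silences the paternal Igf2r copy, was 4.32, 4.91 and 7.27 in KO libraries, against 5.63, 6.99 and 4.24 in WT libraries, with overlapping groups. Airn followed the sets of the first component, being lower in KO 1, KO 2 and WT 3 than in the other libraries. The annotation shows no exon shared between Airn and Igf2r.

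Meg3 (ENSMUSG00000021268), a long noncoding RNA of the Dlk1 locus, was the most variable of the 10. It was 125, 245 and 153 in KO libraries, against 156, 181 and 119 in WT libraries. KO 2 stood highest, and KO 1 and WT 3 were both low. Its standard deviation between replicates on the log2 scale was larger than that of 97.5% of the genes tested. The log2 difference was 0.16 (SE 0.25, limma adjusted p = 0.779), and it turned to -0.11 without KO 2 and to -0.0016 without WT 3. Each of 7 endocrine markers (Neurog3, Neurod1, Chga, Chgb, Gcg, Ins2 and Pax6) was higher in KO 2 than in the other KO libraries. Among WT libraries each of the 7 was highest in WT 1, whereas Meg3 was highest in WT 2. Their sum, to which Gcg and Chgb gave the most, was 284, 525 and 357 in KO libraries, against 526, 430.1 and 388 in WT libraries. The KO mean was lower than the WT mean in 6 of the 7 on the log2 scale, and none passed limma. Neurog3, which sets cells on the endocrine path, was 33.99, 50.9 and 35.1 in KO libraries, against 66.4, 55.4 and 58.3 in WT libraries, with every KO value below every WT value. Its log2 difference was -0.59 (SE 0.16, limma adjusted p = 0.469). The part of endocrine cells in the Meg3 values was not tested.

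Cdkn1c (ENSMUSG00000037664) encodes p57, an inhibitor of cyclin-dependent kinases that helps cells leave the cycle. It was 269, 219 and 262 in KO libraries, against 264, 264 and 267 in WT libraries. The WT libraries were nearly equal, and KO 2 alone was low. The log2 difference was -0.088 (SE 0.091, limma adjusted p = 0.667), and 0.0041 without KO 2. After GC correction it was -0.33. Its longest transcript has the highest GC content of the 10, 59.4%.

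Grb10 (ENSMUSG00000020176), an adaptor that dampens signalling from the insulin and IGF receptors, was 203, 206 and 207 in KO libraries, against 199.8, 216 and 194 in WT libraries. The KO libraries fell inside the WT range. It had the smallest coefficient of variation of the 10 over all libraries, 3.56%, and a log2 difference of 0.017 (SE 0.069, limma adjusted p = 0.927). This value was -0.015 without WT 3.

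**Figure D3:**
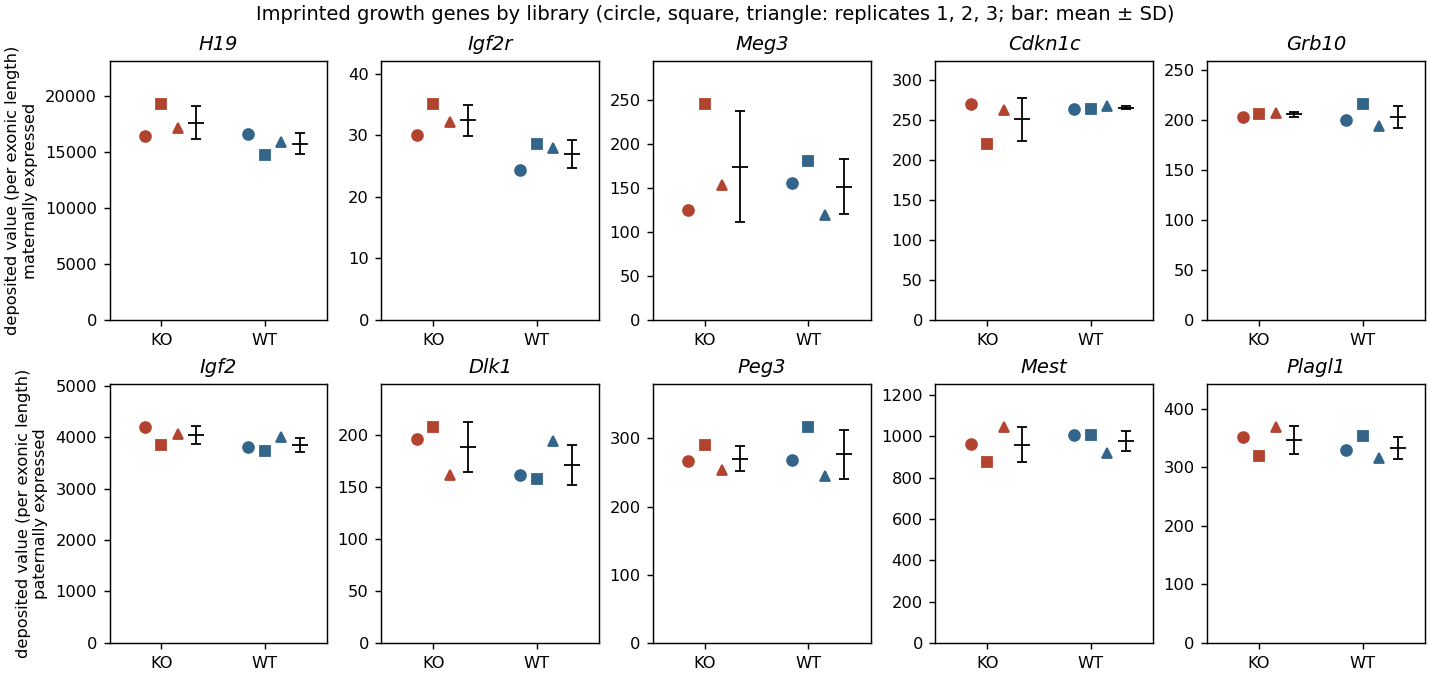
Deposited value of each imprinted growth gene in each library (vertical, density per exonic base, axes from 0), KO left and WT right, maternally expressed genes above and paternally expressed genes below. Bars give the mean ± SD of 3 libraries. The groups overlap in every panel but that of Igf2r, and KO 2 stands apart for H19, Meg3 and Cdkn1c.

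Among the paternally expressed genes, Igf2 (ENSMUSG00000048583) was 4192, 3846 and 4071 in KO libraries, against 3810.3, 3729.8 and 3996 in WT libraries. The KO mean of 4036 ± 176 and the WT mean of 3845 ± 136 (SD, n = 3 per genotype) differed by about the spread of either group. The log2 difference was 0.070 (SE 0.090, limma adjusted p = 0.735), and -0.094 after GC correction.

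Dlk1 (ENSMUSG00000040856) encodes a membrane protein related to Notch ligands that holds progenitors back from differentiation. It was 196, 207 and 161 in KO libraries, against 161, 158 and 194 in WT libraries. The 3 high libraries were KO 1, KO 2 and WT 3, so Dlk1 followed the sets of the first component and not genotype. The log2 difference between genotypes was 0.14 (SE 0.12, limma adjusted p = 0.619), while within the first and second set it was 0.059 and 0.012.

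Peg3 (ENSMUSG00000002265), a zinc finger protein, was 267, 290.3 and 254 in KO libraries, against 268, 316 and 245 in WT libraries. The KO libraries lay within the WT range, with a log2 difference of -0.025 (SE 0.11, limma adjusted p = 0.928). It was 0.020 without KO 3 and 0.076 without WT 2. Mest (ENSMUSG00000051855), a hydrolase-like protein of fetal mesoderm, was 963, 875 and 1044 in KO libraries, against 1005, 1006 and 919 in WT libraries. Its 3 low libraries were KO 1, KO 2 and WT 3. The genotype difference was -0.027 (SE 0.093, limma adjusted p = 0.911), and it was 0.026 with the set as a term and 0.039 without KO 2. Plagl1 (ENSMUSG00000019817) encodes a zinc finger transcription factor known in mice to act on other imprinted genes. It was 351, 319.7 and 368 in KO libraries, against 330.05, 352 and 316 in WT libraries, in overlapping groups. Its log2 difference was 0.056 (SE 0.083, limma adjusted p = 0.768).

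Peg3 shares its start with Usp29, a gene read in the opposite direction, and the region between them is shown because the level on either side differed widely. Usp29 was only 0.91, 1.18 and 0.96 in KO libraries, against 1.06, 1.09 and 0.97 in WT libraries. Its values carry 2 decimals in every library, as those of single-exon genes do, so they may rest on 1 exon. The sequence is from RefSeq, build GRCm38.p6, in the direction of Peg3, from 250 bases before to 50 after its start, with every CG in capitals:
Peg3 start region (chr7:6730370-6730669, strand -): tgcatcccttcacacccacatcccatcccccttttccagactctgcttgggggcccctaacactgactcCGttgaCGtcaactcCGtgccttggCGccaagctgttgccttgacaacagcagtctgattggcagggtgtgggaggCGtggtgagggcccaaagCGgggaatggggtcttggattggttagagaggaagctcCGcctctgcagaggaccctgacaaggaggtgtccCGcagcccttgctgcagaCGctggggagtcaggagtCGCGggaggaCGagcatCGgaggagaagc
It holds 13 CG, and 37.9% of the 32851 windows in the table hold at least as many, where the median is 7. Windows were listed for 8 of the 10 genes, H19 and Cdkn1c being those not used here. Counts at the gene's richest window were 45 for Grb10, 34 for Igf2r, 26 for Plagl1, 24 for Igf2, 17 for Mest, 13 for Meg3 and 9 for Dlk1. At least 45 were found in 1.93% of all windows. The files hold no methylation, so these counts describe sequence only.

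Reciprocally imprinted neighbours can be compared within a library, where the scaling of the library cancels. H19 and Igf2 compete for shared enhancers on chromosome 7, through an insulator bound by CTCF on the maternal copy. The H19 value was 3.92, 5.01 and 4.21 times that of Igf2 in KO libraries, against 4.35, 3.95 and 3.97 times in WT libraries. Only KO 2 stood out. The log2 ratio averaged 2.12 ± 0.181 in KO libraries and 2.03 ± 0.078 in WT libraries (SD, n = 3 per genotype; two-sided exact permutation test p = 0.70, where the smallest p possible is 0.1). The difference of 0.093 was -0.0075 without KO 2.

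Dlk1 and Meg3 lie side by side on chromosome 12. The ratio of Meg3 to Dlk1 was 0.636, 1.19 and 0.953 in KO libraries, against 0.964, 1.14 and 0.615 in WT libraries. Each genotype spanned nearly the whole range, and KO 1 and WT 3 shared the lowest ratios. The log2 ratio differed by 0.027 between KO and WT (two-sided exact permutation test p = 0.80, with 0.1 the smallest possible). It was -0.17 without KO 2, -0.017 without KO 3 and -0.23 without WT 3.

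Mest and Copg2 meet end to end on chromosome 6 and overlap on opposite strands by 912 exonic bases, 23.1% of the annotated exons of Mest and 17.8% of those of Copg2. Strand is not kept by this library kit, and reads of the pair in that stretch cannot be told apart. Copg2, which encodes a coat protein subunit of transport vesicles, was 169.7, 153 and 180.1 in KO libraries, against 178, 178 and 161 in WT libraries. It was 17.3% to 17.6% of Mest in KO and 17.5% to 17.7% in WT, a far narrower range than either gene's own. Whether the value of Copg2 contains reads of Mest was not tested. Igf2 overlaps its antisense gene Igf2os by 98 exonic bases, 1.71% of its exons. On its own strand the annotated gene Gm49394 shares 3596 bases, 62.8% of the exons of Igf2. Gm44732, opposite to Cdkn1c, shares 30.7% of the exons of Cdkn1c. Neither Gm49394 nor Gm44732 is among the genes measured. Igf2os averaged 2.91 ± 0.061 in KO libraries and 2.83 ± 0.131 in WT libraries (SD, n = 3 per genotype).

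**Figure D4:**
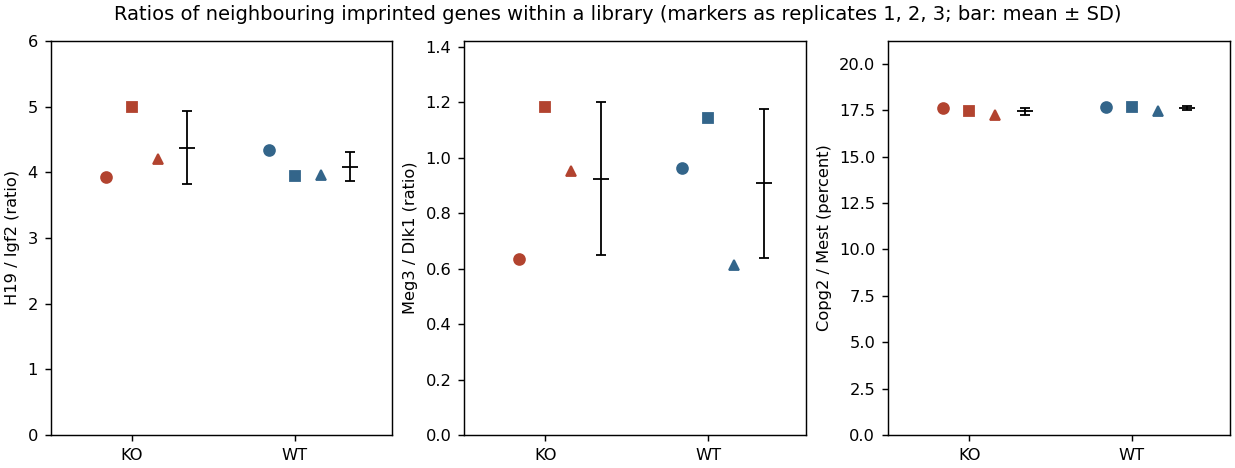
Ratio of H19 to Igf2, of Meg3 to Dlk1 and of Copg2 to Mest (the last in percent) in each library, axes from 0, KO left and WT right, with the mean ± SD of 3 libraries. Groups overlap in the 3 panels, and Copg2 stayed between 17.3% and 17.7% of Mest.

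Other imprinted genes were described from lists chosen for this comparison, some genes of which are imprinted in placenta or brain only. Of 24 maternally expressed genes 22 were found in the files and 15 were tested. KO exceeded WT on average in 9 of them and was below it in 6, the median log2 difference was 0.038, and none passed limma. Dcn, which encodes the matrix proteoglycan decorin, differed most. It was 37.6, 47.7 and 49.7 in KO libraries, against 71.2, 71.2 and 56.2 in WT libraries, with every KO value below every WT value. Its log2 difference was -0.55 (SE 0.14, limma adjusted p = 0.469), with -0.40 within the first set of libraries and -0.51 within the second. Tssc4, Osbpl5 and Nap1l4, which lie in the same imprinted domain as Cdkn1c, had adjusted p-values of 0.498, 0.469 and 0.565, and each was higher in KO 1, KO 2 and WT 3 than in the other libraries. Tssc4 was 15.3, 19.1 and 12.1 in KO libraries, against 10.1, 9.58 and 16.4 in WT libraries.

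Of 25 genes listed here as paternally expressed 21 were found and 19 tested. KO exceeded WT on average in 9 of them and was below it in 10, the median log2 difference was -0.017, and none passed limma. Ndn, which encodes the growth suppressor necdin, was 48.8, 51.6 and 50.3 in KO libraries, against 47.1, 44.2 and 47.5 in WT libraries. Every KO value was above every WT value, with a log2 difference of 0.12 (SE 0.065, limma adjusted p = 0.483). Slc38a4, an amino acid transporter, was 87.7, 81.3 and 83.0 in KO libraries, against 88.7, 96.4 and 90.0 in WT libraries. Every KO value was below every WT value, with a difference of -0.12 (SE 0.068, limma adjusted p = 0.481). H13 and Peg12, the remaining genes named by the rule, had overlapping groups and an adjusted p of 0.473 each in limma. H13 was counted as listed, and that parental class may not hold for all of its transcripts.

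The insulin-like growth factor pathway, in which IGF2 acts through IGF1R and the insulin receptor, gave 13 tested genes of 17. The KO mean was higher in 10 and lower in 3, where 53.5% of all genes tested were higher, with a median log2 difference of 0.12. None passed limma, and 2 of the 13, Igfbp2 and Igf1, had an unadjusted p under 0.05, against 10.3% of all genes tested. Igf1, the related ligand, was 76.0, 67.2 and 77.4 in KO libraries, against 58.3, 69.2 and 49.1 in WT libraries, with WT 2 above KO 2. Its log2 difference was 0.33 (SE 0.13, limma adjusted p = 0.469). Igfbp2, a carrier that binds both ligands, was 27.65, 32.5 and 19.96 in KO libraries, against 12.2, 12.98 and 23.75 in WT libraries, and followed the sets of the first component. Its log2 difference of 0.71 (SE 0.26) had the same adjusted p, and within the first and second set it was 0.32 and 0.63. Irs2 and Igfbp5 also had overlapping groups (adjusted p = 0.473 and 0.478 in limma). Igf1r, which miR-675 is known to repress in mouse placenta, was 5.65, 7.60 and 5.33 in KO libraries, against 4.84, 6.06 and 4.87 in WT libraries, with overlapping groups and an adjusted p of 0.545 in limma.

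Relatives of Cdkn1c and the genes that keep imprints in place gave no call either. Of the cell cycle inhibitors Cdkn1a, Cdkn1b and Cdkn2c, all with a lower mean in KO, Cdkn1a had the largest log2 difference, -0.25 (SE 0.13, limma adjusted p = 0.474). Of 10 tested regulators of imprinted methylation, KO exceeded WT on average in 8, beside 53.5% of all genes tested, and the median log2 difference was 0.083. Trim28, a corepressor that protects imprints in the embryo, was 118, 127 and 100.2 in KO libraries, against 82.8, 80.9 and 114 in WT libraries, again split by the sets of the first component. Dnmt1, the maintenance methyltransferase, was 11.1, 14.6 and 11.2 in KO libraries, against 10.1, 10.7 and 11.1 in WT libraries. Its KO values were all above the WT values, by a small margin over WT 3 (limma adjusted p = 0.492). Dnmt3b, a de novo methyltransferase, was 5.21, 4.89 and 5.21 in KO libraries, against 5.64, 5.77 and 5.38 in WT libraries, with every KO value below every WT value (limma adjusted p = 0.512). Zfp57, which directs Trim28 to imprints, had overlapping groups and an adjusted p of 0.511.

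Of the 10 imprinted growth genes, 2 lay wholly apart between the sets of the first component, Dlk1 higher and Mest lower in KO 1, KO 2 and WT 3. That split is seen in 34.6% of all genes tested.

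**Figure D5:**
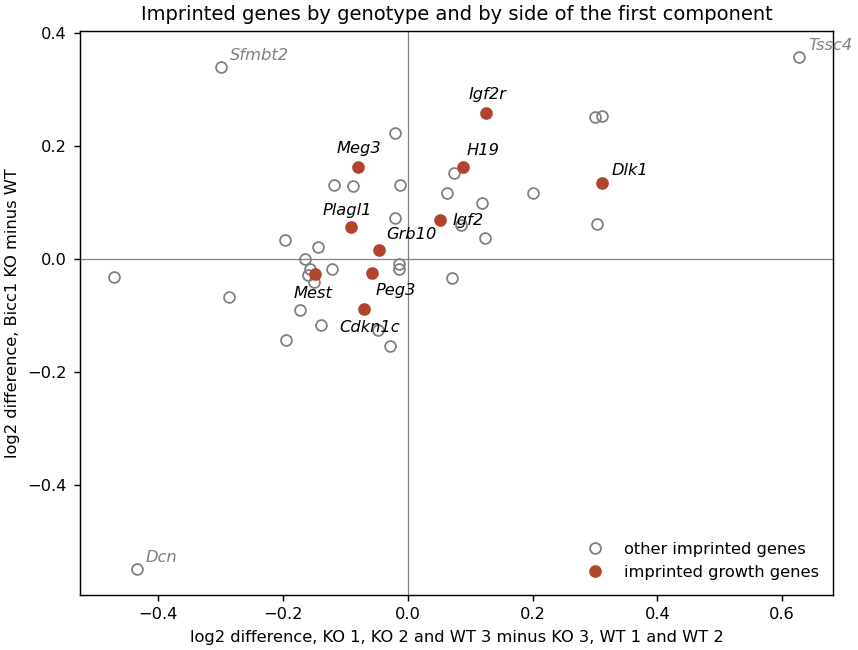
Log2 difference between KO and WT (vertical) against the log2 difference between the 2 sets of the first component (first minus second, horizontal), for the 10 imprinted growth genes (filled) and 34 other imprinted genes (open). Dlk1 is displaced along the horizontal axis more than along the vertical, Igf2r along the vertical, and Dcn and Tssc4 along both.

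Cell type markers were read beside these values. The sum of 10 mesenchymal markers, carried by Vim and the collagens, was 599.8 to 652 in KO and 591 to 621 in WT, and overlapped. Of its 9 tested members 5 were higher in KO on the log2 scale and 4 lower, with a median log2 difference of 0.027. The lowest was Pdgfra, at -0.13. In 3 of the 9 every KO value lay above every WT value, against 7.67% of all genes tested. Their log2 differences were 0.31 for Pdgfrb, 0.77 for Barx1 and 0.75 for Nkx3-2, all at a limma adjusted p of 0.469. Nkx2-5, too low to be tested, was 0.408, 0.315 and 0.770 in KO libraries, against 0.0313, 0.0501 and 0.131 in WT libraries, and did not overlap either. The sum of 9 epithelial markers was 453 to 683 in KO and 491 to 604 in WT, and overlapped. Of the 9, 4 were higher in KO on the log2 scale and 5 lower, with a median log2 difference of -0.040. They ranged from -0.33 for Ptf1a to 0.20 for Krt8. Pdx1, which specifies the pancreas, averaged 11.7 ± 1.98 in KO libraries and 12.0 ± 0.588 in WT libraries (SD, n = 3 per genotype). Ptf1a, a factor of early progenitors and acinar cells, was 3.59, 4.36 and 3.30 in KO libraries, against 5.94, 5.07 and 4.04 in WT libraries, with KO 2 above WT 3. Its log2 difference of -0.33 (SE 0.14) and that of Sox9, a progenitor and duct factor, of -0.25 (SE 0.11) each had an adjusted p of 0.469 in limma. The sum of 6 endothelial markers was 87.7 to 111 in KO and 76.8 to 79.5 in WT and did not overlap, as for Igf2r, and every KO value was above every WT value in 3 of them, Pecam1, Cdh5 and Cldn5, again beside 7.67% of all genes tested. Kdr, Tek and Emcn overlapped, Emcn with a log2 difference of -0.079. The sum of 5 leukocyte markers, at 16.69 to 19.8 in KO and 13.2 to 16.67 in WT, did not overlap either, by a very narrow margin. Of its 4 tested members 3 were higher in KO on the log2 scale and 1, Aif1, was lower, at -0.096. Every KO value was above every WT value in 2 of the 4, Cd68 and Tyrobp, beside 7.67% of all genes tested. Csf1r and Aif1 overlapped, as did Ptprc, which was too low to be tested. The part of mesenchymal, endothelial and other cells in the Igf2r values was not tested. Alb, which defines liver, was 0.136 to 0.620 in KO and 0.374 to 0.546 in WT, and the sum of 6 liver markers was 44.6 to 64.5 in KO and 44.2 to 54.3 in WT. The erythroid sum was 1066 to 1820 in KO and 870 to 1590 in WT, and the neural sum 27.7 to 32.7 in KO and 29.0 to 35.8 in WT.

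The genes whose pattern over the 6 libraries was most like that of H19 were Pank4, Als2cl, Triap1, Thap1 and Lrig1, with Pearson's r of 0.997, 0.994, 0.989, 0.983 and 0.982 on the log2 scale. They were picked as the highest among all genes tested, over 6 libraries that share the contrast in GC content. Of the other imprinted growth genes, Igf2r came closest, with r = 0.62, and Cdkn1c was most opposed, with r = -0.81. The value for Igf2 was 0.14.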

How the data were processed

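TruSeq RNA v2 libraries were made from column-extracted RNA and sequenced on an Illumina instrument, per the labels' protocols and the design text. The submitters' processing notes name CASAVA 1.82, Bowtie 0.12.7 and build mm9. How reads were counted and normalized, and on which annotation, is not given in the sources used here. Each deposited file lists a signal per gene, never below its floor of 0.01, with no stated unit. Read back from its decimals, the signal is a mean over exonic bases: of 16501 genes with several exons and a readable length, 43.0% lay within 1% of the exonic length in GENCODE M21 (GRCm38), with a median of 96.2%, and 3.84% lay under 10%. No counts or depth can be derived.

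Values were used as deposited. Genes with a mean of at least 1 (13911) were tested on a log2(value + 1) scale, on which the change of low genes is understated, in R 4.3.3 by limma 3.58.1 (mean-variance trend, two-sided, Benjamini-Hochberg over all genes, threshold 0.05). A count test planned for count files was not used, since the files hold no counts. On simulated data for KO against WT with 13911 genes, changes of 0.5, 1 and 2 log2 units were recovered in 46.9%, 86.7% and 100% of genes, with 7 false calls. The simulated noise was independent between genes and libraries, so it lacked the shared first component of the real libraries. The shares recovered also depend on how many changes were planted. They need not hold for the real libraries, where Nkx3-2, at a log2 difference of 0.75, did not pass limma. The genes and lists were chosen with earlier results of these data known. The genes named are the 10 imprinted growth genes, Bicc1, up to 4 of each list with the lowest p, and the 5 most like H19. Cell type lists are given as sums. Named outside that rule, for their place or role, were Copg2, Airn, Usp29, Igf2os, Igf1r, Pdx1, Ptf1a, Alb, the other cell type markers with values, Xist and the Y-linked genes. Python 3.11.15 with numpy 2.4.6, pandas 2.3.3 and matplotlib 3.10.9 produced the tables and plots.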

Additional observations from a re-analysis of the deposited data

How the results depend on the processing

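Libraries were rescaled by totals, upper quartiles or median ratios, the filter was dropped or required in 3 libraries, the pseudocount was set to 0.1, moderation was made robust, replicate number, GC content or both were modelled, the set of the first component was added as a term, and each library was left out. None of the 10 genes passed limma under any of these 17 alternatives, and in 158 of 170 comparisons the direction was kept. That share is inflated, because the filters, the robust moderation and the replicate block leave each log2 difference unchanged. In those comparisons the direction could not turn. The adjusted p of Igf2r ranged from 0.183 to 0.908.

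GC correction gave -0.00099 for H19, -0.094 for Igf2, 0.027 for Dlk1, 0.083 for Plagl1 and -0.33 for Cdkn1c, with or without the block, and medians of 0.0094 for the maternally and -0.0075 for the paternally expressed genes, against 0.16 and 0.056 as reported. With the set as a term Mest was at 0.026, Dlk1 at 0.035, Plagl1 at 0.097 and the paternal median at 0.035. Leaving out a library moved H19 between 0.096 and 0.21, Igf2r between 0.19 and 0.31, Meg3 between -0.11 and 0.37, Cdkn1c between -0.14 and 0.0041, Grb10 between -0.015 and 0.060, Igf2 between 0.042 and 0.10, Dlk1 between 0.062 (without KO 2) and 0.24 (without KO 3), Plagl1 between 0.011 (without KO 3) and 0.11 (without KO 2), Peg3 between -0.11 and 0.076, and Mest between -0.089 and 0.039. The maternal median ranged from -0.0016 (without WT 3) to 0.21 and was 0.015 without KO 2, and the paternal median ranged from 0.019 (without WT 3) to 0.076. The log2 ratio of H19 to Igf2 ranged from -0.0075 to 0.17 and that of Meg3 to Dlk1 from -0.23 to 0.27. The causes were not tested.

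The count of genes called, 2 as reported, was 1 with no filter, 4 after GC correction, and 1 to 7 without a library (7 without KO 2). Same-numbered libraries did not deviate together (correlations of -0.22, -0.40 and -0.64), and no library correlated best with its own number. With the replicate block limma called 0 genes, with 656 at an unadjusted p of 0.05, and with the block and GC correction 1. An unknown depth and 3 libraries a group limit all differences.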
